A study of Homo sapiens with 8 samples.

Results

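Receptor tyrosine kinases that can carry growth signals past a blocked EGFR were followed in 2 lung cancer cell lines. The set holds 10 genes (MET, AXL, IGF1R, INSR, FGFR1, FGFR2, FGFR3, EPHA2, MERTK and ROR1), taken by name from 18244 genes that the array measures with at least 1 probe set annotated to that gene alone. A probe set is a group of short DNA probes that are read together and match 1 or more transcripts. The 10 genes had 46 such probe sets, and each gene was read from the one with the highest mean over the 8 arrays. The names come from a known role in bypassing EGFR inhibition.

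The study measured RNA on 8 expression arrays, 1 for each combination of line, culture and treatment, so no condition had a replicate. HCC827 cells carry an activating EGFR mutation, and A549 cells do not. The 3D cultures started with 100000 cells on a scaffold of collagen and grew for 14 days, and the 2D cultures started with 200000 cells in dishes and grew for 7 days. Treated cultures received gefitinib, an inhibitor of the EGFR kinase, at 1 µM, and controls received no inhibitor. In 3D the drug was present for the last 3 days. How long it was present in 2D is not stated. The groups were thus HCC827 with gefitinib in 3D and its control, HCC827 with gefitinib in 2D and its control, and the same 4 for A549. Each EGFR status is represented by a single line, so the mutation and other differences between the lines cannot be told apart. RNA of the 3D samples was released with beads and purified with another kit than RNA of the 2D samples, so culture and RNA preparation cannot be told apart either.

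Receptor tyrosine kinases bind a ligand outside the cell, pair up and phosphorylate tyrosines inside it, to which adaptor proteins dock and start the RAS-ERK and PI3K-AKT pathways. EGFR uses the same pathways, so another active receptor can keep them running when EGFR is inhibited. MET amplification and raised AXL are known routes of resistance to EGFR inhibitors in lung cancer. These arrays measure RNA, not receptor protein or phosphorylation.

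Promoters are shown for the receptors with the widest line differences (AXL, MERTK) and the 2 that fell with gefitinib in HCC827 on the scaffold (MET, EPHA2). Each runs 5′ to 3′ on the gene's strand, from 250 bases before to 50 bases after the start given by RefSeq in GRCh38.p14. MET lies at chr7:116671946-116672245 (plus strand), EPHA2 at chr1:16156020-16156319 (minus strand), MERTK at chr2:111898357-111898656 (plus strand) and AXL at chr19:41218973-41219272 (plus strand), the first of its 2 listed starts. Of the 10 genes, 9 matched an entry and FGFR1 did not. Capitals mark letters that match any of 7 motifs on either strand.
MET: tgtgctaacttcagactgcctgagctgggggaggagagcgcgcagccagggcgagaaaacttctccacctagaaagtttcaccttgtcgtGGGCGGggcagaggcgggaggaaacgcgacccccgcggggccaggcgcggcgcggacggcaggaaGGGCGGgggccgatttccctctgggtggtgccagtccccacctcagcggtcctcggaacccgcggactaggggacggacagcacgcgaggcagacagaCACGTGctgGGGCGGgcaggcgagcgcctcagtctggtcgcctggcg
EPHA2: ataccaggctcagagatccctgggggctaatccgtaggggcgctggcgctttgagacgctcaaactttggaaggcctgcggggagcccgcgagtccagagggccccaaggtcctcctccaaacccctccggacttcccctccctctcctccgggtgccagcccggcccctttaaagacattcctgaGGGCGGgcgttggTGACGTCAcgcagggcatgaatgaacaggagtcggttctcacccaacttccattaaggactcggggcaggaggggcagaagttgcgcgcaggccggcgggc
AXL: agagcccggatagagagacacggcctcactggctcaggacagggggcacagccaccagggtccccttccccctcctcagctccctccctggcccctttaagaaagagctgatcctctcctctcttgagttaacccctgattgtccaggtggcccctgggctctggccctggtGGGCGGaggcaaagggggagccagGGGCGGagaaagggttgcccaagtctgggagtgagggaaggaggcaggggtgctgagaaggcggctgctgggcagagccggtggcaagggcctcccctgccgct
MERTK: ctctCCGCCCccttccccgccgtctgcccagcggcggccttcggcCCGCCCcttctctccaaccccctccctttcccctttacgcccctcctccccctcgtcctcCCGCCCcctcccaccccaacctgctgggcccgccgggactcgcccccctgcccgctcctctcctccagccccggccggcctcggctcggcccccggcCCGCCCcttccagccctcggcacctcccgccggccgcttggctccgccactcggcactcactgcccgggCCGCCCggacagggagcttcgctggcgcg
The motifs searched were the GC box GGGCGG, the E-box CACGTG, the AP-1 site TGANTCA, the cyclic AMP response element TGACGTCA, the ETS core CCGGAA, the FOXO site GTAAACA and the hypoxia element core ACGTG, which lies inside the E-box. The MET window held 3 GC boxes and 1 E-box, and the E-box holds 2 overlapping hypoxia cores, 1 on each strand. The EPHA2 window held 1 GC box and 1 cyclic AMP response element. The AXL window held 2 GC boxes and the MERTK window 5, all 5 on the opposite strand. Among 35116 promoters of the same length, 45.0% held the GC box, 7.3% the E-box, 1.8% the cyclic AMP response element and 21.4% the hypoxia core. The AP-1 site was in 7.7%, the ETS core in 17.2% and the FOXO site in 3.4% of them, and these 3 were in none of the 4 windows shown. The window of the second AXL start, not shown, held 1 ETS core, 1 FOXO site and 2 hypoxia cores. A match is a description of letters and shows no binding.

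Some facts of the arrays bear on all values below. Array medians lay between 7.27 and 7.34 on the log2 scale, and a value below its array's median is treated here as dim. All 6 epithelial markers (EPCAM, KRT8, KRT18, KRT19, CDH1, KRT7) were above the median on every array. Of 6 fibroblast markers, 2 were above it on some HCC827 array (COL1A1, LUM) and 1 on some A549 array (LUM). PECAM1 was above it in both lines and VWF in A549, out of 3 endothelial markers. Of 3 leukocyte markers measured, only CD68 was above it. Actin control probes at the 3′ end exceeded those at the 5′ end by 2.10 ± 0.47 in 3D and by -0.10 ± 0.04 in 2D (log2, SD, 4 arrays each, exact two-sided permutation p = 0.0286, the smallest that 70 splits allow). For GAPDH the values were 0.91 ± 0.48 in 3D and -0.02 ± 0.02 in 2D (exact p = 0.0286). This sign of RNA integrity moves with culture, and its part in the culture results was not tested.

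DUSP6, ETV5 and CCND1, which ERK signalling induces, were used to check the treatment labels. In HCC827 on the scaffold the gefitinib array was lower than the control array by log2 differences of -3.32, -1.79 and -1.78. In HCC827 in 2D, the array labelled gefitinib was higher than the array labelled control by 3.64, 2.52 and 2.51. The pairs oppose each other, so the 2D arrays of HCC827 are named by their labels, and directions that rest on them hold only as labelled. In A549 the same genes differed by -0.46 to 0.23 in either culture.

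EGFR itself had log2 signals of 11.12 (3D gefitinib), 11.66 (3D control), 10.96 (array labelled 2D gefitinib) and 10.40 (array labelled 2D control) in HCC827. In A549 it had 8.43, 8.66, 8.36 and 8.21 in the same order of conditions. All HCC827 arrays were above all A549 arrays (log2 difference 2.62 ± 0.21, limma adjusted p = 0.00178).

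Between the lines, HCC827 had less AXL, IGF1R, FGFR1 and FGFR2 RNA and more MERTK, ROR1 and INSR RNA than A549, with 4 receptors lower and 3 higher past the threshold. The other 3 (MET, EPHA2, FGFR3) did not pass. The threshold is an adjusted p under 0.05 in a limma fit over all 8 arrays and 11926 genes. In that fit 48.1% of all tested genes passed in this comparison (22% higher and 26.1% lower), against which the 7 of 10 receptors are to be read. The median difference was -0.37 over the receptors and -0.03 over all tested genes. Differences are log2 values, HCC827 minus A549, with the standard error of the fit. Without replicates, that error measures how far gefitinib effects differ between 2D and 3D within a line, not the scatter of repeated cultures. It is pooled over both lines, so the opposed HCC827 pairs also enter the errors given for A549. The order of single conditions within a line, each 1 array, has no test. RNA per cell and the number of cells of a type cannot be told apart in such bulk samples.

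AXL, the receptor for the ligand GAS6 and a mark of mesenchymal-like tumour cells, showed the largest difference among the 10. Its signals in HCC827 were 6.64 (3D gefitinib), 6.61 (3D control), 7.14 (labelled 2D gefitinib) and 6.63 (labelled 2D control). In A549 they were 11.16 (3D gefitinib), 11.40 (3D control), 9.89 (2D gefitinib) and 9.40 (2D control). Every HCC827 array was below its array's median, so AXL was at least 8.92-fold lower in HCC827 than in A549, against the HCC827 array medians as a floor. The measured means were 6.76 in HCC827 and 10.46 in A549 (difference -3.71 ± 0.17, limma adjusted p = 4.9e-04). AXL entered the test through A549 alone. The bound is that of the probe set used. The second AXL probe set had 6.68 to 7.07 in HCC827 and 7.24 to 7.98 in A549, and gave -0.60 (limma adjusted p = 0.0137). The mean of both probe sets gave -2.15 (limma adjusted p = 0.00108), so the direction held and the size depends on the probe set.

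MERTK, a receptor of the same TAM family that also binds GAS6 and PROS1, ran the other way. HCC827 had 8.76 (3D gefitinib), 8.02 (3D control), 8.12 (labelled 2D gefitinib) and 7.89 (labelled 2D control). A549 had 6.45, 6.38, 6.47 and 6.41 in the same order of conditions, all below the array median. MERTK was at least 1.84-fold higher in HCC827 than the A549 array medians (measured difference 1.77 ± 0.11, limma adjusted p = 8.72e-04). It entered the test through HCC827 alone. The 2 TAM receptors thus sat in opposite lines: each was above the median on all 4 arrays of one line and below it on all 4 of the other.

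ROR1, an orphan-type receptor that binds WNT5A, had 9.69 (3D gefitinib), 9.25 (3D control), 9.39 (labelled 2D gefitinib) and 8.88 (labelled 2D control) in HCC827. In A549 it had 8.66 (3D gefitinib), 8.59 (3D control), 7.85 (2D gefitinib) and 8.15 (2D control). The lines did not overlap, and ROR1 was 1.99-fold higher in HCC827 (0.99 ± 0.10, limma adjusted p = 0.00291). Both of its probe sets passed in this direction.

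IGF1R, the receptor for the insulin-like growth factors, had 10.11 (3D gefitinib), 10.10 (3D control), 8.92 (labelled 2D gefitinib) and 10.16 (labelled 2D control) in HCC827. In A549 it had 11.50 (3D gefitinib), 11.31 (3D control), 10.72 (2D gefitinib) and 10.26 (2D control). All HCC827 arrays were below all A549 arrays, with the closest pair the 2D arrays labelled control. IGF1R was 2.19-fold lower in HCC827 (-1.13 ± 0.23, limma adjusted p = 0.0189), and all 5 of its tested probe sets passed in this direction.

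INSR, the insulin receptor, differed less by line than by culture, and its line ranges overlapped. It was higher in HCC827 by 0.52 ± 0.08 (limma adjusted p = 0.00907). Of its 4 tested probe sets, 3 passed in this direction and 1 gave -0.12 (adjusted p = 0.343).

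Among the FGF receptors, FGFR1 had 7.55 to 8.05 in HCC827 and 8.07 to 8.52 in A549, without overlap (-0.43 ± 0.08, limma adjusted p = 0.0134). All 6 of its tested probe sets were lower in HCC827, by -0.34 to -1.91, so the size depends on the probe set. FGFR2 was below the array median on every HCC827 array, at 6.57 to 7.23. In A549 it was above the median only in 2D, at 7.87 (gefitinib) and 7.65 (control), and below it in 3D, at 7.17 (gefitinib) and 7.21 (control). FGFR2 passed as lower in HCC827 (measured difference -0.68 ± 0.13, limma adjusted p = 0.0156). No bound is given, since FGFR2 was dim in A549 3D too, where with gefitinib HCC827 (7.23) was above A549 (7.17). It entered the test only through the A549 2D arrays. With a filter of at least 4 arrays above the median it was not tested. FGFR3 did not pass (-0.31 ± 0.15, limma adjusted p = 0.156).

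MET, the receptor for HGF, had 11.64 (3D gefitinib), 13.22 (3D control), 12.43 (labelled 2D gefitinib) and 11.77 (labelled 2D control) in HCC827. In A549 its values were close together, at 11.34, 11.13, 11.25 and 11.38 in the same order of conditions. Each HCC827 array was above each A549 array, yet the difference of 0.99 ± 0.39 did not pass (limma adjusted p = 0.105). The HCC827 arrays spread over 1.58 log2 units, the A549 arrays over far less. This separation holds for 1 of the 4 tested MET probe sets, the one used, and the lines overlapped in the other 3. EPHA2, a receptor for ephrin-A ligands that can also signal without them, had 7.98 (3D gefitinib), 8.95 (3D control), 8.85 (labelled 2D gefitinib) and 8.12 (labelled 2D control) in HCC827. In A549 it had 9.53 (3D gefitinib), 9.62 (3D control), 9.19 (2D gefitinib) and 9.44 (2D control). EPHA2 was below all A549 arrays in HCC827, but the difference of -0.97 ± 0.30 did not pass (limma adjusted p = 0.0565). With the interactions left out of the fit, MET (adjusted p = 0.0479) and EPHA2 (adjusted p = 0.0162) both passed. In all, 7 receptors (MET, AXL, IGF1R, FGFR1, EPHA2, MERTK, ROR1) had no overlap between the lines in the probe sets used, against 32.6% of all tested genes. Leaving out any 1 A549 array left 2 or 3 receptors past the threshold, and AXL and MERTK passed each time.

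**Figure D1:**
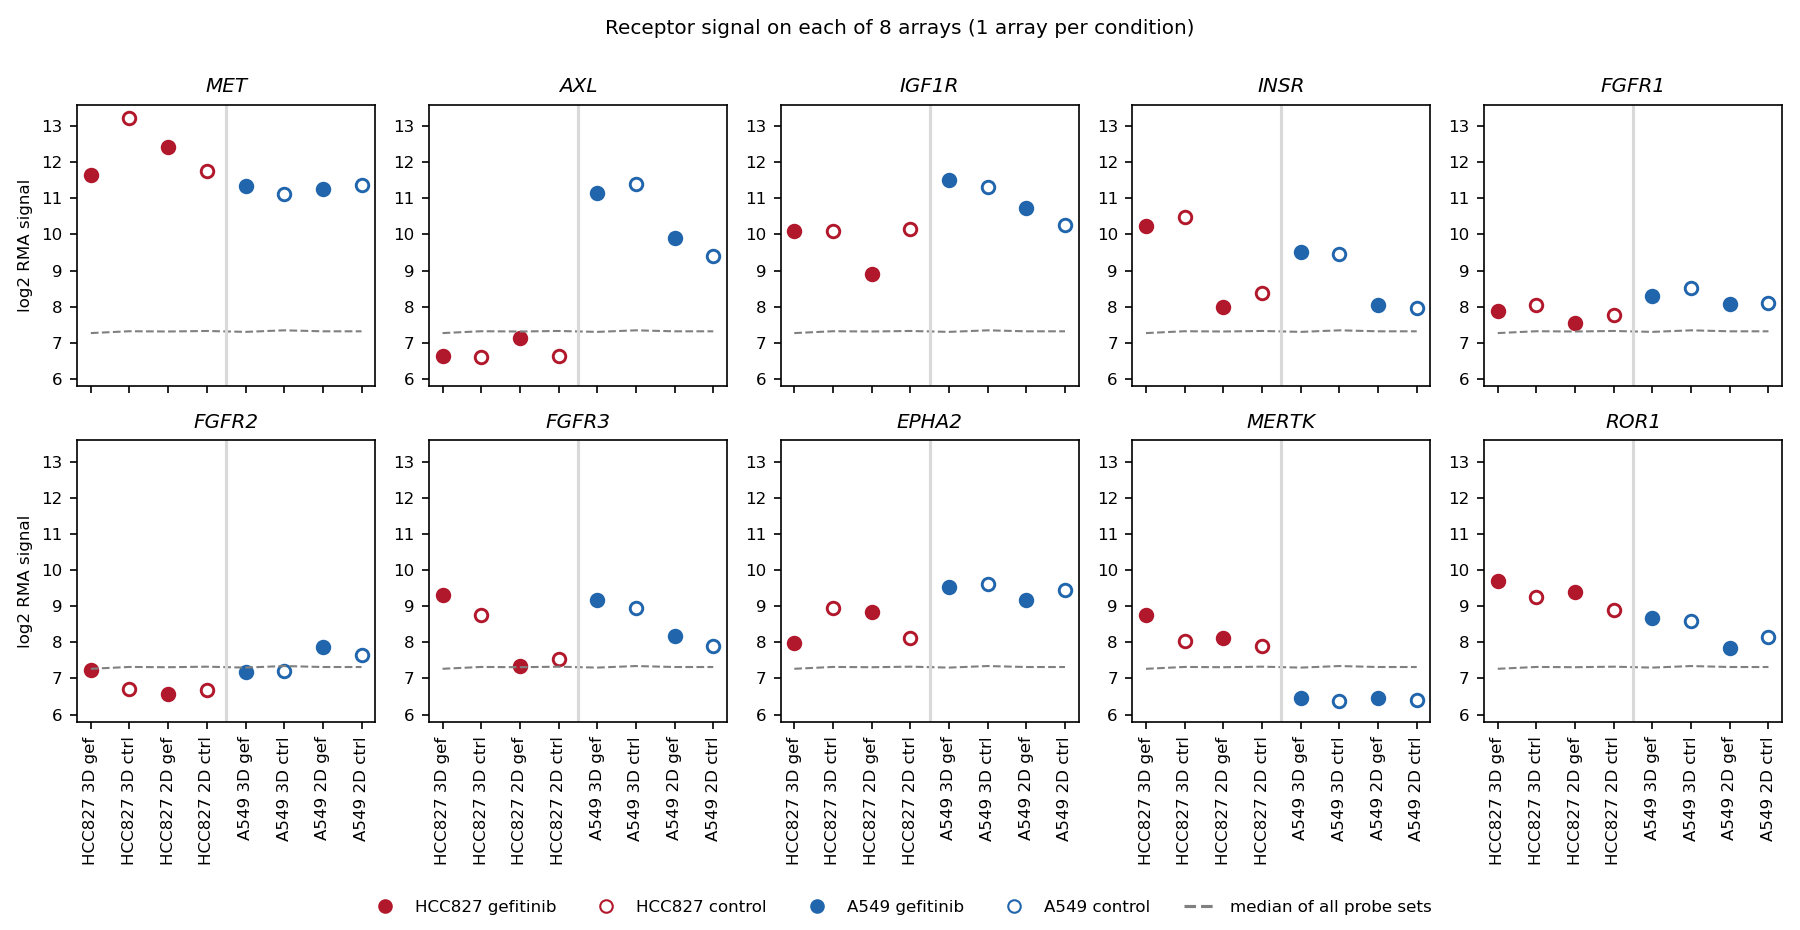
Log2 RMA signal (y axis) of each receptor on each of the 8 arrays (x axis, HCC827 in the left part and A549 in the right part of each panel), with gefitinib as filled points, control as open points and the array medians as a dashed line. AXL lies at 9.40 to 11.40 in A549 and below the dashed line in HCC827, MERTK shows the opposite, and INSR is higher on the 3D arrays of both lines.

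On the scaffold, INSR and FGFR3 RNA was higher than in 2D in HCC827, and INSR, FGFR3, AXL and ROR1 RNA was higher than in 2D in A549. No receptor passed in the lower direction in either line. These are 2 of 10 receptors in HCC827, where 33.4% of all tested genes passed (19.7% higher, 13.7% lower). In A549 they are 4 of 10, where 22.3% passed (16.3% higher, 6.01% lower). The receptors' median difference was 0.34 in HCC827 and 0.48 in A549, against 0.08 and 0.13 over all tested genes. Differences are 3D minus 2D on the log2 scale.

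INSR had 10.23 (3D gefitinib) and 10.50 (3D control) in HCC827, against 7.98 (labelled 2D gefitinib) and 8.36 (labelled 2D control). In A549 it had 9.51 (3D gefitinib) and 9.45 (3D control), against 8.04 (2D gefitinib) and 7.97 (2D control). Both lines separate fully by culture. INSR was 4.57-fold higher in 3D in HCC827 (2.19 ± 0.12, limma adjusted p = 0.0106) and 2.79-fold higher in A549 (1.48 ± 0.12, limma adjusted p = 0.0177). The rise in HCC827 held in the control pair (2.13) and in the gefitinib pair (2.26), and with the 2D labels turned the pairs gave 2.52 and 1.87, so it does not rest on the treatment labels. All 4 tested INSR probe sets rose in HCC827, by 0.71 to 2.19. In A549 3 of the 4 rose, and the remaining one gave 0.11 (adjusted p = 0.436).

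FGFR3, a receptor for FGF1 and FGF9 among others, had 9.32 (3D gefitinib) and 8.75 (3D control) in HCC827, against 7.34 (labelled 2D gefitinib) and 7.54 (labelled 2D control). A549 had 9.17 (3D gefitinib) and 8.96 (3D control), against 8.18 (2D gefitinib) and 7.89 (2D control). The cultures did not overlap in either line. FGFR3 was 3.02-fold higher in 3D in HCC827 (1.60 ± 0.21, limma adjusted p = 0.0138) and 2.03-fold higher in A549 (1.02 ± 0.21, limma adjusted p = 0.0389). Averaged over its probe sets, the A549 value was 0.44 and missed the threshold (adjusted p = 0.088). The other FGFR3 probe set was below the median on every array and gave 0.09 in HCC827 and -0.14 in A549. The HCC827 2D values also lay near their array medians, 7.31 (labelled gefitinib) and 7.33 (labelled control). The sizes in both lines thus rest on 1 probe set.

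AXL rose 3.10-fold on the scaffold in A549 (1.63 ± 0.24, limma adjusted p = 0.0228). The 3D arrays, at 11.16 (gefitinib) and 11.40 (control), were above the 2D arrays, at 9.89 (gefitinib) and 9.40 (control). Its second probe set gave 0.47 (adjusted p = 0.0906), so the size depends on the probe set. In HCC827 AXL was below the array median in both cultures, so no difference is given. ROR1 rose 1.54-fold in A549 (0.63 ± 0.14, limma adjusted p = 0.0461), and its second probe set passed too. Without the filter on dim genes, ROR1 did not pass in A549 (adjusted p = 0.0569). In HCC827 the ROR1 value was 0.34 ± 0.14 (limma adjusted p = 0.139).

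IGF1R gave 0.57 ± 0.33 in HCC827 (limma adjusted p = 0.244) and 0.91 ± 0.33 in A549 (limma adjusted p = 0.116), and neither passed. One further IGF1R probe set was higher in 3D in both lines, by 1.14 in HCC827 (limma adjusted p = 0.0114) and 1.92 in A549 (limma adjusted p = 0.0119). The other IGF1R probe sets did not pass in either line. FGFR1 gave 0.30 ± 0.11 in HCC827 and 0.32 ± 0.11 in A549, and its probe sets disagreed in sign in both lines. FGFR2 was dim in both cultures of HCC827 and gave -0.57 ± 0.18 in A549 (limma adjusted p = 0.0931). MERTK gave 0.39 ± 0.15 in HCC827 (limma adjusted p = 0.113), and was dim in A549.

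For MET and EPHA2 the culture value in HCC827 depended on the treatment labels. Between the arrays labelled control, MET was higher in 3D by 1.45, and between the arrays labelled gefitinib it was lower in 3D by a log2 difference of -0.80. EPHA2 gave 0.83 in the control pair and -0.87 in the gefitinib pair. With the 2D labels turned, the 3D control array minus the 2D array labelled gefitinib gave 0.79 for MET and 0.10 for EPHA2. The 3D gefitinib array minus the 2D array labelled control gave -0.13 for MET and -0.14 for EPHA2, so the opposite values of the pairs shrink for MET and nearly vanish for EPHA2. The fit averages the pairs to 0.33 ± 0.56 for MET (limma adjusted p = 0.677) and -0.02 ± 0.42 for EPHA2 (limma adjusted p = 0.973). In A549 the values were -0.08 ± 0.56 for MET and 0.26 ± 0.42 for EPHA2, with the same pooled errors. The MET probe sets disagreed: 3 others gave -0.49 to -1.16 in HCC827 and -0.46 to -1.02 in A549, none of them past the threshold.

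Some markers of cell type moved with culture as well. LUM had 7.37 (3D gefitinib) and 6.28 (3D control) in HCC827, against 8.47 (labelled 2D gefitinib) and 9.93 (labelled 2D control). The 3D control value was below its array's median, and LUM missed the threshold (limma adjusted p = 0.0506). COL1A1, another fibroblast marker, was higher in 3D in HCC827 (limma adjusted p = 0.0211), as was the endothelial marker PECAM1 (limma adjusted p = 0.0489). Both were dim on the HCC827 2D arrays, so no size is given. In A549 the epithelial marker EPCAM had 7.90 (3D gefitinib) and 7.72 (3D control), against 9.77 (2D gefitinib) and 9.74 (2D control). It was lower in 3D (-1.95, limma adjusted p = 0.018). The other 5 epithelial markers did not pass in A549, at -0.08 (CDH1) to 0.51 (KRT19), and the median of all 6 was 0.11. In HCC827 0 of 6 passed in either direction. The part of these markers in the receptor values was not tested.

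In HCC827, 4 receptors (INSR, FGFR1, FGFR2, FGFR3) had no overlap between the cultures, against 67.2% of all tested genes. In A549 there were 8 (all but MET and MERTK), against 79.7%. The difference between the lines in the culture effect passed for 0 of 10 receptors and 0 of 11926 genes in limma. At an unadjusted p under 0.05 it took in 3 receptors (AXL, INSR, FGFR2) and 1696 genes. The AXL value was -1.90 ± 0.33 (adjusted p = 0.185), the FGFR2 value 0.92 ± 0.26 (adjusted p = 0.261) and the INSR value 0.71 ± 0.16 (adjusted p = 0.223). Leaving out any A549 array left 0 receptors past the threshold for culture in either line. Without 1 HCC827 array at a time, more receptors passed for culture in each line and for the difference between the lines. So did more of all tested genes, as the ranges in the last section show. Without both HCC827 2D arrays, IGF1R, FGFR1 and EPHA2 also passed in A549 in the higher direction and FGFR2 in the lower. In that fit the error of every gene comes from A549 alone, so these calls are not read as a result about the receptors.

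**Figure D2:**
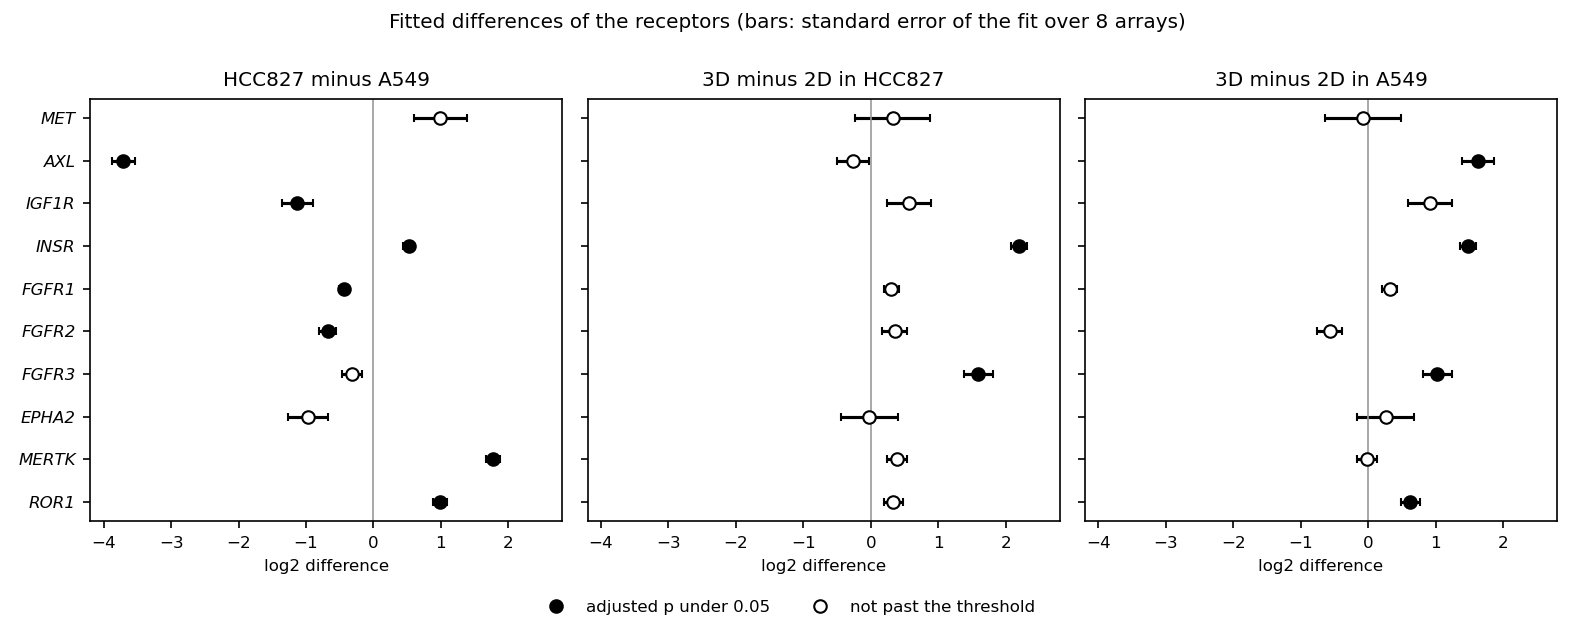
Fitted log2 difference (x axis) of each receptor (y axis) for HCC827 minus A549 and for 3D minus 2D in each line, with bars for the standard error of the 8-array fit and filled points past the threshold. AXL stands at -3.71 between the lines, INSR at 2.19 and 1.48 between the cultures of HCC827 and A549, and the bars of MET and EPHA2 are the widest.

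With gefitinib in HCC827 on the scaffold, MET and EPHA2 RNA fell, and MERTK, FGFR3 and ROR1 RNA rose, by smaller amounts. FGFR2 also passed, with both arrays of the pair below the array median. AXL, IGF1R, INSR and FGFR1 did not pass. Of all tested genes 27.2% passed in this comparison, 6.78% in the higher and 20.4% in the lower direction. The receptors' median was 0.02, against -0.11 over all tested genes. The test used the 6 arrays other than the HCC827 2D arrays, and its error comes from A549 alone, on the assumption that HCC827 varies alike. The lines did not spread alike: over all tested genes, gefitinib and control arrays differed with an SD of 0.42 in HCC827 3D, against 0.17 in A549 3D and 0.16 in A549 2D. The p-values of this comparison carry that limit.

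MET had 11.64 in the gefitinib array and 13.22 in the control array, and was 3.00-fold lower (-1.58 ± 0.15, limma adjusted p = 5.43e-05). Of the genes tested, 3.15% were lower by at least 1 log2 unit in this pair, and MET was the only receptor among them. All 4 tested MET probe sets fell, by -1.13 to -1.61. In the HCC827 2D pair MET was higher by 0.66 in the array labelled gefitinib, which is the direction of DUSP6, ETV5 and CCND1 in that pair. EPHA2 had 7.98 in the gefitinib array and 8.95 in the control array (-0.97 ± 0.12, limma adjusted p = 3.8e-04), and its second probe set fell too, by -0.61. In the 2D pair EPHA2 was higher by 0.73 in the array labelled gefitinib. MET and EPHA2 thus changed sign between the pairs, as the 3 ERK-induced genes did.

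MERTK had 8.76 in the gefitinib array and 8.02 in the control array (0.74 ± 0.12, limma adjusted p = 0.00153), and the labelled 2D pair gave 0.24 in the same direction. FGFR3 had 9.32 with gefitinib and 8.75 in the control (0.56 ± 0.12, limma adjusted p = 0.00723), while the labelled 2D pair gave -0.20. FGFR2 had 7.23 with gefitinib and 6.71 in the control, both below the array median, so no size is given although it passed (limma adjusted p = 0.0167). ROR1 had 9.69 with gefitinib and 9.25 in the control (0.45 ± 0.15, limma adjusted p = 0.0456), and the labelled 2D pair gave 0.50. ROR1 lost the threshold when its probe sets were averaged (0.29, adjusted p = 0.0914), with a stricter filter (adjusted p = 0.0517), or in its second probe set (0.13, adjusted p = 0.517). FGFR1 gave -0.18 ± 0.13 (limma adjusted p = 0.34), but 1 of its other probe sets gave 0.46 (adjusted p = 0.0245). INSR gave -0.26 ± 0.12 (limma adjusted p = 0.128), and 1 of its other probe sets passed at -0.42 (adjusted p = 0.0307). IGF1R differed by 0.01 and AXL by 0.03 in 3D. IGF1R was lower by -1.24 in the 2D array labelled gefitinib, where 1.62% of all tested genes were lower by at least 1 log2 unit. With the 2D labels turned the IGF1R value is 1.24, and the same 1.62% of genes are then the ones at least 1 log2 unit higher. As labelled, 2.36% of genes were higher by that much. Every 2D value given here for HCC827 changes sign in the same way if the labels are turned.

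Other values moved with this comparison. The 3′ minus 5′ difference of actin was 2.64 in the HCC827 3D gefitinib array and 2.34 in its control, and that of GAPDH was 1.57 in the gefitinib array and 0.97 in its control. The epithelial markers had a median difference of -0.78, and 4 of 6 were lower past the threshold. CD68 was lower by -1.45. The fibroblast marker LUM had 7.37 in the gefitinib array and 6.28 in the control array (limma adjusted p = 0.00149). The control value was below its array's median, so no size is given. COL1A1, the other fibroblast marker tested, did not pass (-0.07, limma adjusted p = 0.713). Their part in the receptor values was not tested.

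In A549, gefitinib changed no receptor past the threshold: 0 of 10 receptors and 0 of 11926 genes passed in limma. At an unadjusted p under 0.05 there were 0 receptors and 86 genes. The receptors' fitted differences lay between -0.17 (EPHA2) and 0.32 (IGF1R), and their adjusted p was 1. By culture, AXL gave -0.24 in 3D and 0.50 in 2D, IGF1R 0.19 in 3D and 0.46 in 2D, and MET 0.22 in 3D and -0.13 in 2D. With 1 array per condition, a small difference would not be detectable here. The error of this fit is pooled with the HCC827 pairs, so it is not the spread of A549 alone.

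**Figure D3:**
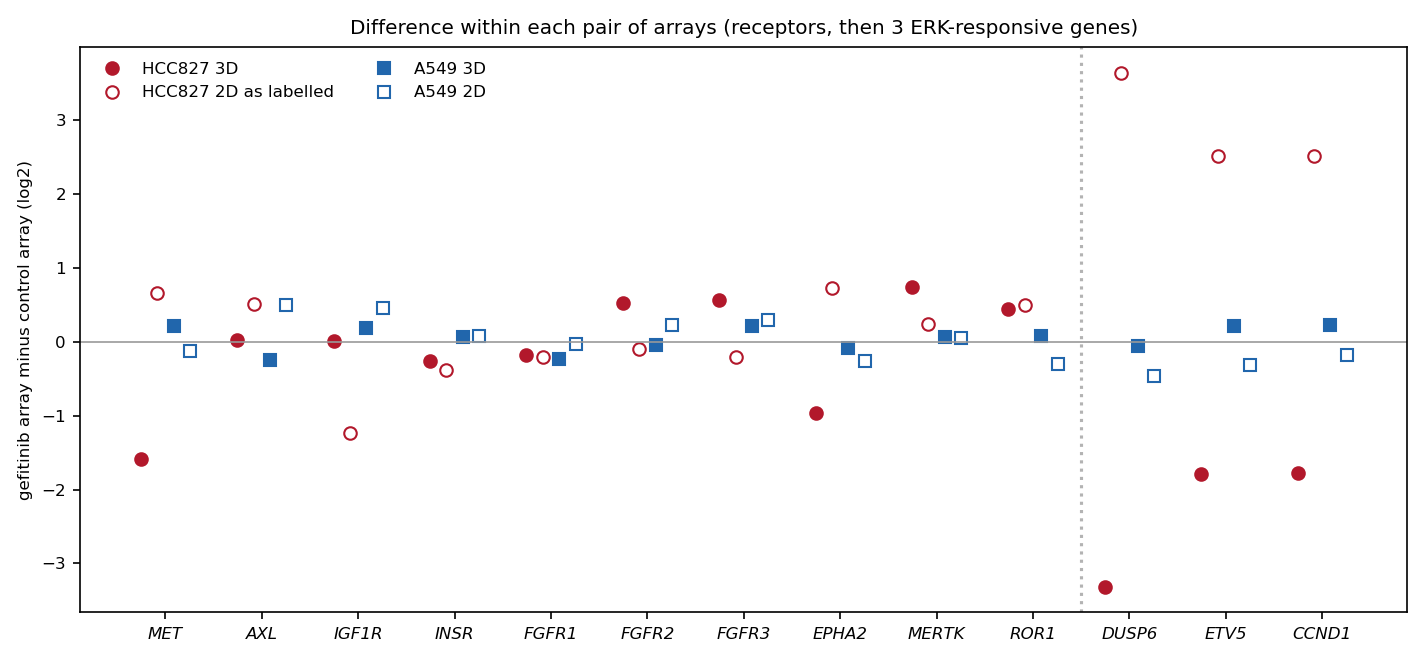
Log2 difference between the gefitinib and the control array (y axis) in each of the 4 pairs of arrays, for the 10 receptors and, right of the dotted line, for DUSP6, ETV5 and CCND1 (x axis). MET and EPHA2 are at -1.58 and -0.97 in HCC827 3D and at 0.66 and 0.73 in HCC827 2D as labelled, on the same sides of 0 as the 3 ERK-induced genes.

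**Figure D4:**
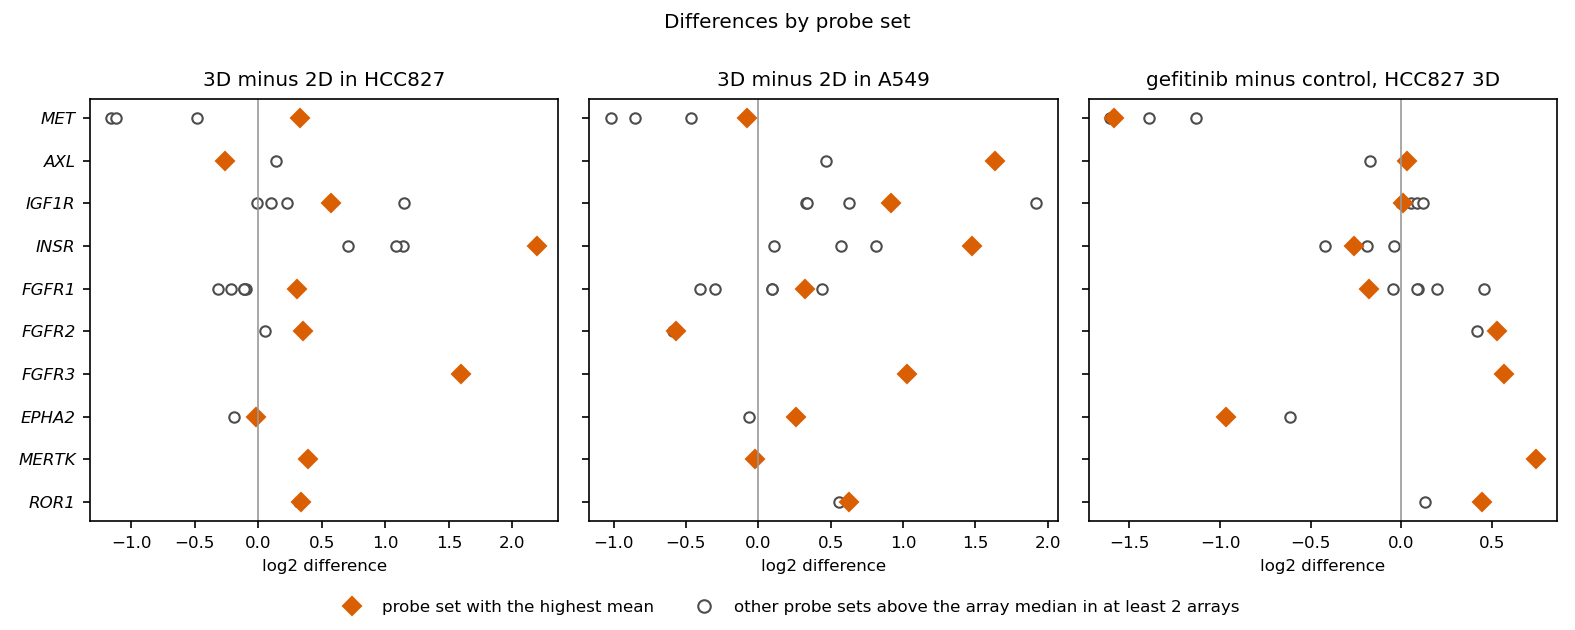
Log2 difference (x axis) of every tested probe set of each receptor (y axis) for 3D minus 2D in each line and for gefitinib minus control in HCC827 3D, with diamonds for the probe set used. The 4 INSR probe sets lie between 0.71 and 2.19 in HCC827, the MET probe sets lie on both sides of 0 for culture in HCC827, and all 4 MET probe sets lie between -1.61 and -1.13 for gefitinib.

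The ligands of these receptors were measured for 19 of 21 listed genes, and 8 passed the filter on dim genes. HGF, the ligand of MET, was below the median on all 4 HCC827 arrays and above it on 3 A549 arrays. It passed as lower in HCC827 (limma adjusted p = 0.00867), and no bound is given because it was dim on an A549 array as well. FGF2, a ligand of FGF receptors, was above the median on 1 HCC827 array and 3 A549 arrays, and was lower in HCC827 (-0.71 ± 0.07, limma adjusted p = 0.00245). EFNA4, an ephrin-A ligand, was higher (0.60 ± 0.09, limma adjusted p = 0.00936), so 1 of 8 ligands was higher and 2 were lower, where 22% of all tested genes were higher and 26.1% lower. On the scaffold 2 of 8 ligands were higher and 1 lower in each line (all genes: 19.7% higher and 13.7% lower in HCC827, 16.3% and 6.01% in A549). EFNA1, a main ligand of EPHA2, rose in HCC827 (1.30 ± 0.25, limma adjusted p = 0.0249) and in A549 (1.49 ± 0.25, limma adjusted p = 0.0271), while FGF2, dim on both HCC827 3D arrays, was the lower one in each line. GAS6, the ligand of AXL and MERTK, was the only ligand of 8 to pass with gefitinib in HCC827 3D, where 6.78% of all tested genes were higher and 20.4% lower. It had 8.82 in the gefitinib array and 7.56 in the control array (1.26 ± 0.13, limma adjusted p = 8.71e-05), whereas the labelled 2D pair gave -1.10. GAS6 differed in sign between the pairs, as MET and EPHA2 did, but in the opposite sense.

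Of 48 other receptor tyrosine kinases, 46 were measured and 23 tested. Between the lines 11 of 23 were higher and 3 lower in HCC827 (all genes: 22% higher, 26.1% lower). PTK7 and EPHA1 were dim on all A549 arrays and higher in HCC827, PTK7 by at least 3.17-fold. EPHA1 was above the median on only 3 HCC827 arrays, so no bound is given for it. NTRK3 was dim on all HCC827 arrays and at least 2.71-fold lower there, and FGFR4 was lower by a log2 difference of -1.49. On the scaffold 8 of 23 rose and 0 fell in HCC827 (all genes: 19.7% and 13.7%), and 3 rose and 0 fell in A549 (all genes: 16.3% and 6.01%). EPHB4, an ephrin-B receptor, rose by 1.50 in HCC827 and 1.03 in A549. ERBB2, the partner of EGFR, rose by 1.48 in HCC827 and 1.02 in A549, and the collagen receptor DDR1 by 1.18 in HCC827 and 0.97 in A549. With gefitinib in HCC827 3D none of 23 was higher and 5 were lower, near the 20.4% of all tested genes that were lower: AATK (-0.72), MST1R (-0.63), FGFR4 (-0.59), EGFR (-0.55) and KDR (-0.54). MST1R is the close relative of MET and the receptor for MST1.

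Adaptors and effectors that dock to these receptors were measured for 22 of 25 genes, and 21 were tested. In HCC827 3 of 21 were higher and 6 lower than in A549 (all genes: 22% and 26.1%). IRS2, the docking protein of INSR and IGF1R, was lower by -2.71 ± 0.17 (limma adjusted p = 9.67e-04), the largest of the list. On the scaffold 6 of 21 rose and 3 fell in HCC827 (all genes: 19.7% and 13.7%), and 6 rose and 2 fell in A549 (all genes: 16.3% and 6.01%). GRB7 rose by 1.12 in HCC827 and 1.42 in A549, SRC by 1.10 in HCC827 and 1.16 in A549, and PTPN11, the phosphatase SHP2, fell by -1.93 in HCC827 and -1.05 in A549. With gefitinib in HCC827 3D 2 of 21 rose (SHC2 by 0.70, SOS1 by 0.40) and 3 fell (PIK3R1 by -0.52, GRB2 by -0.45, VAV2 by -0.36), where 6.78% of all tested genes rose and 20.4% fell.

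Co-receptors, phosphatases, sheddases and ubiquitin ligases were measured for 23 of 24 genes, and 20 were tested. In HCC827 6 of 20 were higher and 6 lower than in A549 (all genes: 22% and 26.1%). SDC4, a heparan sulphate co-receptor of FGF receptors, was higher by 2.62, and CD44, a co-receptor of MET, lower by -1.52. On the scaffold 6 of 20 rose and 1 fell in HCC827 (all genes: 19.7% and 13.7%), and 5 rose and 1 fell in A549 (all genes: 16.3% and 6.01%). PLXNB1, which pairs with MET, rose by 1.92 in HCC827 and 1.62 in A549, and ADAM10, a protease that sheds receptors, fell by -0.95 in HCC827 and -0.99 in A549. With gefitinib in HCC827 3D 4 of 20 rose and 3 fell (all genes: 6.78% and 20.4%), among them CD44 (-0.85) and the MET partner PLXNB1 (0.71).

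Genes whose pattern was most like a receptor's were found by Pearson's r over the 8 arrays after subtracting each line's mean, among 4067 genes that spanned at least 1 log2 unit. The arrays are few and share lines and cultures, so these values only describe. MET was most like TNC (r = 0.977), IL1A (0.967) and PTAFR (0.966). INSR was most like FCGRT (0.999), DIPK1B (0.998) and CHD2 (0.998). FGFR3 was most like LFNG (0.996), TMEM8B (0.996) and TMEM63B (0.995). IGF1R was most like MT1F (0.984), PTPRS (0.977) and PTPRK (0.975), and AXL was like IGFBP5 (0.960) and REEP3 (0.950). The other 5 receptors spanned less than 1 log2 unit within a line and were not compared.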

How the data were processed

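The authors deposited log2 signals of 49495 probe sets on 8 arrays made by RMA (robust multi-array averaging), per the submitters' processing notes, which also name R 3.2.1. From each sample 100 ng of RNA was amplified and labelled, per the labels' protocols. The labels give a drug start after 4 days in a sentence that repeats 3D, which was read as 2D. The deposited log2 values were used as given. The number of arrays limits precision.

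The array annotation gave 45278 probe sets 1 gene symbol and 1333 several, which were left out, as were 102 control probe sets. Symbols were updated through RefSeq (45208 matched, 70 did not). Each of 18244 genes was read from the probe set with the highest mean. A gene had to exceed the array median in at least 2 arrays, which kept 11926. All 10 receptors passed, AXL through A549 alone, MERTK through HCC827 alone and FGFR2 through the A549 2D arrays.

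Differences were tested two-sided with limma 3.58.1 in R 4.3.3, with a variance trend and Benjamini-Hochberg adjustment over all tested genes. The 8-array model had 6 coefficients (mean, line, culture, treatment, line by culture, line by treatment), with 2 residual and 2.36 prior degrees of freedom. For gefitinib in HCC827 3D, a 6-array model without the HCC827 2D arrays had 1 residual and 9.12 prior degrees of freedom. Both fits were run on simulated data with independent noise of the same size in both lines. That setting cannot show whether HCC827 varies like A549. P-values thus measure the spread between these arrays, and nothing shows how separate cultures would vary. Where every array of a line was below the array median and every array of the other line above it, the fold is a bound against those medians. Alternatives were another probe set choice, normalization, filter, variance prior or model, and each array left out. The text names the 10 receptors, EGFR, DUSP6, ETV5 and CCND1, genes from those with the largest differences in each list, up to 5 past the threshold or 2 otherwise, and the 3 genes most like each receptor with a span of at least 1 (1 such gene for AXL is not reported here). The receptors and lists were chosen with earlier results of these data known.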

Additional observations from a re-analysis of the deposited data

Results flagged for a closer look

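The MET difference with gefitinib had opposite signs in the cultures of HCC827: the difference between the gefitinib and control arrays in 3D minus that in 2D as labelled was -2.25, with a fall in 3D and a higher value in 2D. For EPHA2 the same quantity was -1.70. With the HCC827 2D labels turned, both pairs run the same way and the quantities are -0.92 for MET and -0.24 for EPHA2. Both rest on 1 array per condition and the difference was not tested.

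The culture effect (3D minus 2D) had opposite signs in the 2 lines for 3 receptors. HCC827 minus A549, it was -1.90 for AXL, 0.92 for FGFR2 and 0.41 for MERTK. None passed the test of the difference in limma (adjusted p = 0.185 for AXL, 0.261 for FGFR2, 0.459 for MERTK), and AXL and FGFR2 in HCC827 and MERTK in A549 were below the array median. The second AXL probe set was higher in 3D in both lines (0.14 in HCC827, 0.47 in A549). MERTK differed by only -0.03 and -0.02 in the A549 pairs. With the HCC827 2D labels turned, the HCC827 pairs gave -0.53 and 0.00 for AXL, 0.14 and 0.57 for FGFR2, and -0.10 and 0.88 for MERTK. The sign pattern of AXL and MERTK is thus not firm.

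INSR was lower with gefitinib in both HCC827 pairs as labelled (-0.26 in 3D, -0.39 in 2D). In A549 it was higher by only 0.06 in 3D and 0.08 in 2D. Those A549 values are small against the SD over all tested genes in the same pairs (0.17 in 3D, 0.16 in 2D). The mean difference in HCC827 minus that in A549 was -0.39. With the HCC827 2D labels turned, the HCC827 pairs oppose each other and the same quantity is -0.01, so the sign pattern depends on those labels. This difference was not tested.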

How the results depend on the processing

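No paired analysis was possible because each condition had 1 array and the labels carry no replicate numbers. Of 952 alternative values for single receptors, 758 kept their direction and side of the threshold, 48 lost the threshold, 71 gained it, 11 reversed, and 64 values that passed in neither setting changed sign. Leaving out 1 array decided most changes (41 of those that lost and 60 of those that gained it). With 1 array left out at a time, 2 to 10 receptors passed between the lines, 0 to 8 for culture in HCC827, 0 to 8 for culture in A549, 0 to 7 for the difference between those and 0 to 0 for gefitinib in A549. No such run was possible for gefitinib in HCC827 3D, which has no residual degree of freedom left. Over all tested genes the same runs gave 1838 to 8584 calls between the lines, 0 to 7719 for culture in HCC827, 0 to 7648 for culture in A549 and 0 to 4536 for their difference. Without both HCC827 2D arrays, IGF1R, FGFR1, FGFR2 and EPHA2 also passed for culture in A549, with the error of every gene then taken from A549 alone. Without 1 HCC827 array, the MET culture value in HCC827 ranged from -0.80, its sign reversed (without either array labelled control), to 1.45, and its difference from A549 from -0.72 to 1.53. The same EPHA2 values ranged from -0.87 to 0.83, reversed without either array labelled gefitinib, and from -1.13 to 0.57. In single probe sets, FGFR1 reversed to -0.32 for culture in HCC827 (adjusted p = 0.0498) and to 0.46 for gefitinib in HCC827 3D (adjusted p = 0.0245), and INSR to -0.12 between the lines (adjusted p = 0.343). The cause of these changes was not tested, except that fewer arrays leave 1 residual degree of freedom, taken from 1 line. The alternatives for single pairs of arrays, those with the HCC827 2D labels turned included, were chosen after seeing the data and are not among the 952. They include the culture pair values of HCC827 and the gefitinib pair values of A549 given above. With 1 array per condition, dim receptors have only bounds or no size.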
